A study of Homo sapiens with 6 samples.

Results

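The genes described here are 45 splicing regulators and the kinases that act on them: the SR proteins SRSF1 to SRSF11, the SR-like proteins TRA2A and TRA2B, the kinases CLK1, CLK2, CLK3, CLK4, SRPK1 and SRPK2, 20 hnRNPs, PTBP1, PTBP3, RBM39, and the paraspeckle proteins SFPQ, NONO and PSPC1. They were taken by name from a count table of 60728 genes, without pseudogenes. All 45 were found, and all passed the low-count filter that left 15548 genes for testing. The measurements were RNA-seq fragment counts from JJN3, a human multiple myeloma cell line that the labels give as WT. Each of 3 groups had 2 libraries: the vehicle DMSO, a 2 h exposure to WNK463, and a 6 h exposure to it. WNK463 is a small molecule that blocks WNK kinases, which control ion transport and cell volume. The labels disagree on its dose, with 5 µM in the protocol of the samples but 1 µM in the text on the design. The DMSO libraries carry no time in their titles, and the design text lists 0, 2 and 6 h, so time in culture and treatment cannot be told apart. The labels do not say whether the 2 libraries of a group were separate cultures. The p-values take in only the spread between libraries within groups, in an estimate that borrows from other genes.

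SR proteins carry an RNA-recognition motif and a tail rich in arginine and serine. They bind exons and help the spliceosome recognise them. The tail is phosphorylated by the SRPK kinases in the cytoplasm, which directs SR proteins into the nucleus, and by the CLK kinases in the nucleus, which releases them from storage in nuclear speckles. The hnRNPs are abundant nuclear RNA-binding proteins that often oppose SR proteins at exons. Many genes of both families limit their own output by splicing in a poison exon or keeping an intron, so that the transcript is degraded or stays in the nucleus.

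Counts assigned to genes ranged from 18013790 to 24002291 per library, and the lowest count of any of the 45 genes in any library was 486 (CLK4). Levels below are CPM, a gene's share of all counts scaled to library size. The labelled cell type was checked against plasma cell markers: 8 of 8 had at least 1 CPM in every library, with a summed level of 1790 to 1910 CPM. T cell, myeloid, erythroid and fibroblast markers summed to at most 0.979 CPM in any library, with CD3D and HBB at 0 counts in all 6 libraries. A count of 0 allows up to 3 counts by counting error alone, or 0.125 to 0.167 CPM of the library totals without TMM scaling. B cell markers summed to 3.6 to 4.39 CPM in DMSO, 3.24 to 4.37 at 2 h and 1.39 to 2.44 at 6 h. Epithelial markers, 3 of 4 above 1 CPM in every library, summed to 102 CPM in each DMSO library, 126 to 130 CPM at 2 h and 119 to 126 CPM at 6 h, and their part in the changes below was not tested. In such bulk libraries fewer cells of a type and less RNA per cell cannot be told apart. The 2 DMSO libraries differed more from each other over all genes (chi-square per degree of freedom 8.85) than the 2 h (4.19) or 6 h libraries (3.59). Of the 45 genes, 37 had a mean of at least 100 CPM.

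In DMSO-treated JJN3 cells the highest levels per exonic length belonged to hnRNPs and their relatives. HNRNPAB stood at 261 ± 31.7 CPM per kb of exon (SD, n = 2), HNRNPA1 at 207 ± 12.3, HNRNPA2B1 at 159.9 ± 8.48, SFPQ at 159 ± 7.50 and HNRNPK at 155 ± 2.69. HNRNPA2B1 and SFPQ lay within each other's SD, and HNRNPK lay within the SD of both. SRSF2 (112 ± 5.65 CPM per kb) and SRSF3 (82.2 ± 3.39) led the SR proteins, and SRSF4 (16.2 ± 0.156) was the lowest of them. The kinases were low, from 27.6 ± 1.85 CPM per kb for SRPK1 down to 15.3 ± 0.765 for CLK1, 14.4 ± 0.174 for CLK2, 12.4 ± 0.667 for SRPK2, 3.51 ± 0.157 for CLK4 and 2.20 ± 0.267 for CLK3. The exonic length of a gene here is the union of all its annotated exons, retained introns included, which lowers the per-length level of genes such as CLK3 (20443 bases) and HNRNPU (22512 bases).

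**Figure D1:**
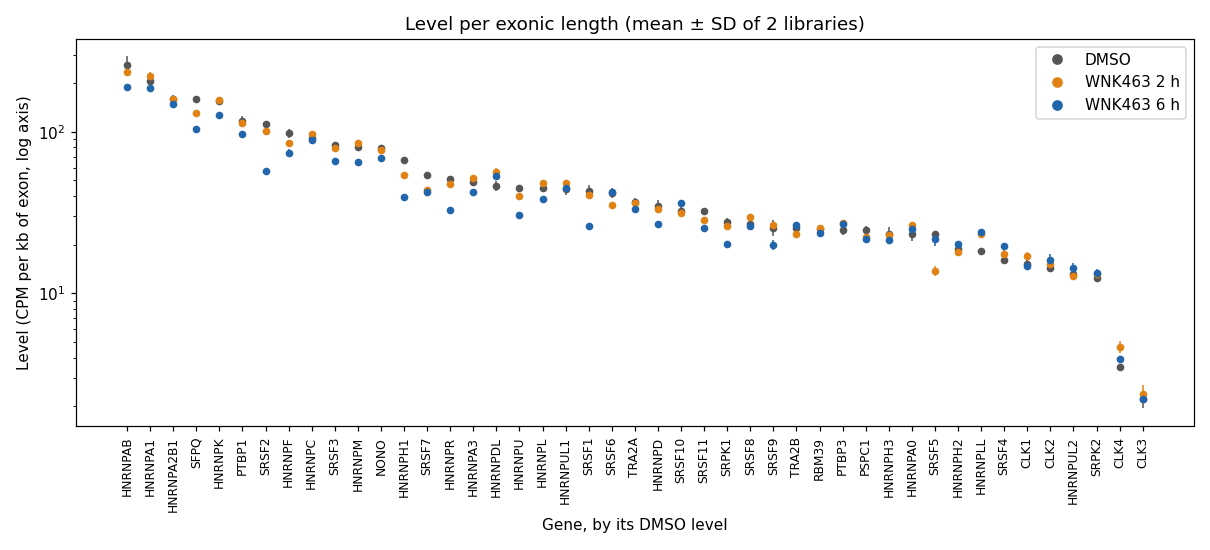
Level of each of the 45 genes in CPM per kb of exon (log axis) as mean ± SD of 2 libraries, for DMSO, 2 h and 6 h of WNK463, ordered by the DMSO level. HNRNPAB, HNRNPA1 and HNRNPA2B1 stand at the top and CLK4 and CLK3 at the bottom, and the 6 h points of SRSF2 and HNRNPH1 lie well below their DMSO points.

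After 2 h of WNK463 most of the 45 genes were not called, and SRSF5 changed most. Of the 45 genes 8 fell (SRSF5, SRSF6, SRSF7, SRSF11, HNRNPF, HNRNPH1, HNRNPU and SFPQ), 3 rose (CLK4, HNRNPDL and HNRNPLL) and 34 were not called, against 8.32% of all genes tested called lower and 8.68% called higher. The called share was 24.4%, with 17.8% lower and 6.67% higher, beside 17.0% of all genes tested. Among genes averaging at least 100 CPM 26.8% were called, 10.9% lower and 15.9% higher. The share called in either direction was thus no larger than among genes of that abundance. By direction the share lower was larger and the share higher smaller, on 8 and 3 genes. The median log2 change was -0.03, beside -0.00 over all genes tested and 0.04 among genes averaging at least 100 CPM. Without DMSO replicate 1 the number called higher at 2 h went from 3 to 8, and the number called lower went from 8 to 4 without 2 h replicate 2 and to 5 without 2 h replicate 1 or either 6 h library. Calls were made at a Benjamini-Hochberg adjusted p under 0.05 over all 15548 genes in edgeR's quasi-likelihood test.

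By 6 h most of the genes that changed were lower. In the comparison of 6 h with DMSO 21 of 45 fell, 4 rose (SRSF4, SRSF10, HNRNPDL and HNRNPLL) and 20 were not called. The median log2 change was -0.14, beside -0.00 over all genes tested and -0.06 among genes averaging at least 100 CPM. Of all genes tested 36.6% were called, 18.6% lower and 18.0% higher. Among genes averaging at least 100 CPM the shares were 61.5% called, 35.6% lower and 25.8% higher, against 55.6% called, 46.7% lower and 8.89% higher among the 45. Without 6 h replicate 1 the number lower was 16, and the number higher was 2 without one or the other 6 h library. Together the 45 genes took 1.63% and 1.56% of all counted fragments in libraries of DMSO-treated cells, 1.53% and 1.499% after 2 h, and 1.37% and 1.38% at 6 h. Every 6 h library thus held a smaller share than every other library.

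The direct comparison of 6 h with 2 h tested whether the later time differed from the earlier one. The DMSO libraries enter it only through the filter, the scaling and the shared estimate of the spread. This comparison called 19 of the 45 genes lower at 6 h, 4 higher (SRSF5, SRSF6, SRSF10 and TRA2B) and 22 in neither direction. The median log2 change was -0.15, beside 0.01 over all genes tested and -0.08 among genes averaging at least 100 CPM. The called share was 51.1%, against a background of 24.3% (13.1% lower and 11.1% higher) over all genes tested, and 49.9% (34.5% lower and 15.4% higher) among genes averaging at least 100 CPM. Leaving out any 1 library gave 16 to 26 lower and 1 to 5 higher: without 2 h replicate 2 or 6 h replicate 1 the number higher was 1, and without 2 h replicate 1 it was 2.

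**Figure D2:**
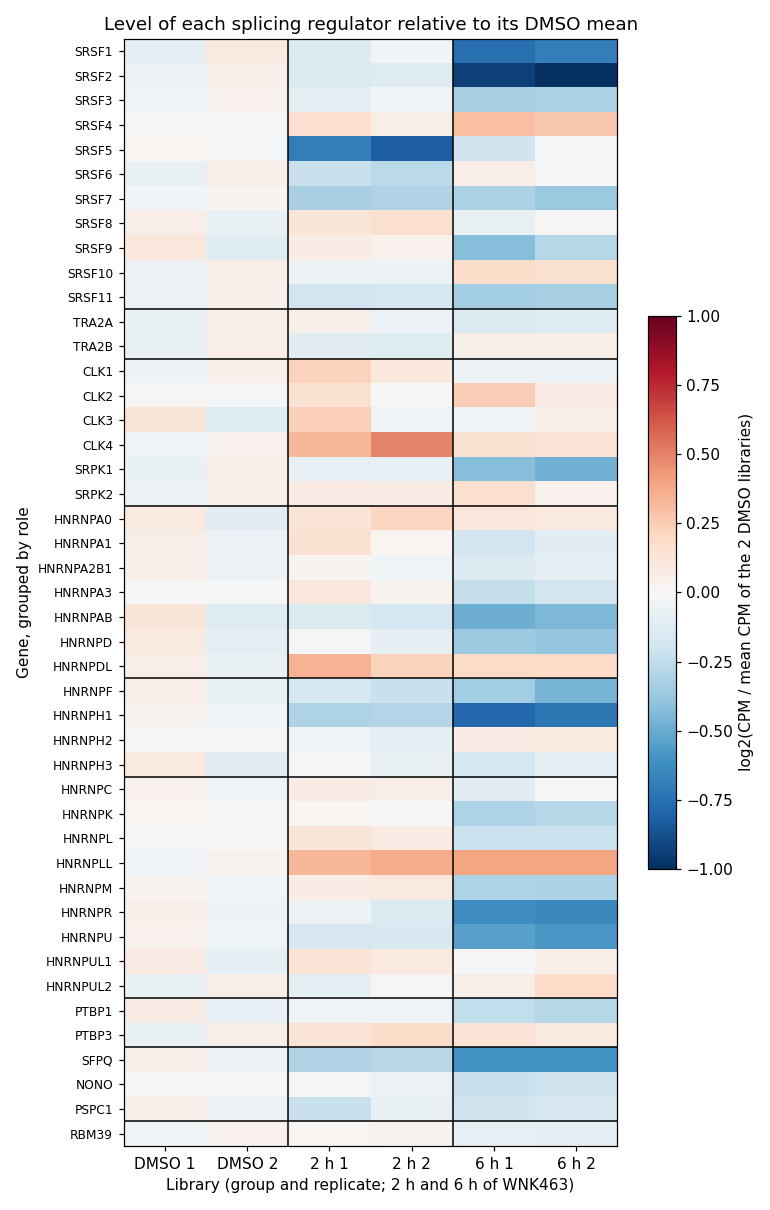
Each row is a gene and each column a library, coloured by log2 of the library's CPM over the mean of the 2 DMSO libraries (blue lower, red higher). The 6 h columns are blue for SRSF1, SRSF2, HNRNPH1, HNRNPR, HNRNPU and SFPQ, SRSF5 is bluest at 2 h, and HNRNPLL is red in all 4 treated libraries.

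**Figure D3:**
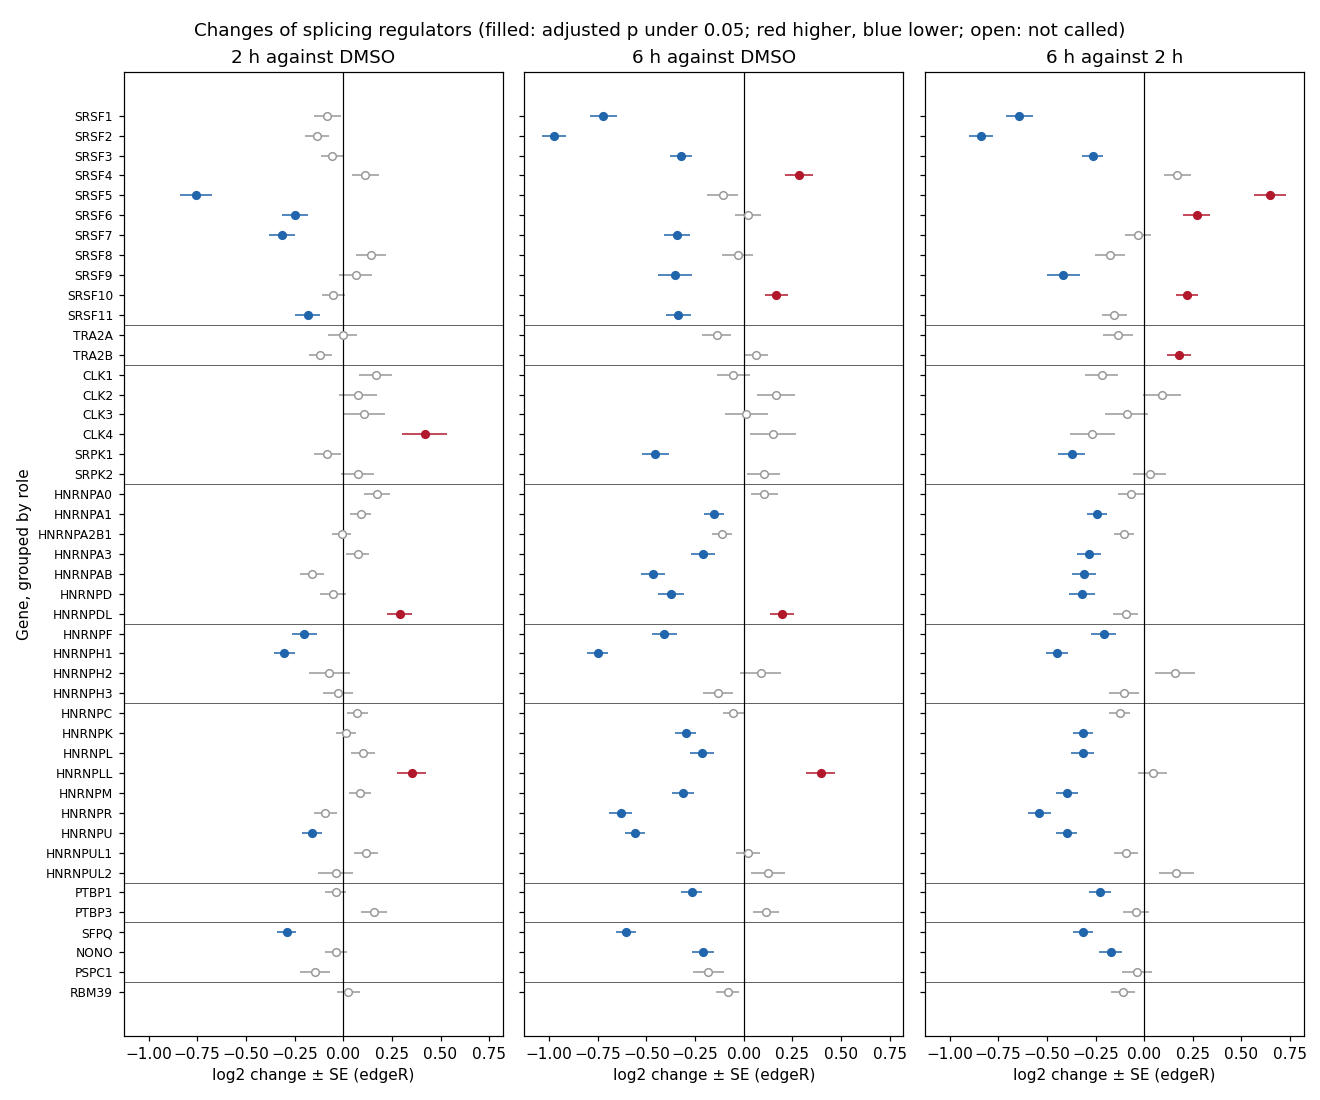
Log2 change ± SE of each gene from edgeR in the 3 comparisons, with filled points for an adjusted p under 0.05. At 6 h against DMSO 21 points are called lower (blue) and 4 higher (red), and the lowest is SRSF2 at -0.97 ± 0.0637 SE.

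Among the 11 SR proteins 6 (54.5%) fell and 2 (18.2%) rose at 6 h against DMSO, beside 18.6% and 18.0% of all genes tested. Among genes averaging at least 100 CPM the shares were 35.6% and 25.8%. The largest fall of all 45 genes was that of SRSF2. SRSF2, which binds exonic enhancers and also acts in transcription elongation, stood at 320.4 and 344 CPM in the DMSO libraries, 301 and 304 CPM at 2 h and 174 and 165 CPM at 6 h. The 6 h libraries lay far below the other 4, and the 2 h libraries only just below DMSO. SRSF2 was thus 1.97-fold lower at 6 h than in DMSO (log2 change -0.97 ± 0.0637 SE, adjusted p = 5.18e-17) and 1.79-fold lower than at 2 h, while its 2 h change of -0.14 was not called (adjusted p = 0.134). SRSF1, the founding member of the family and a known oncoprotein, stood at 234 and 265 CPM in the DMSO libraries, 226 and 245 CPM at 2 h and 148 and 154 CPM at 6 h. The 2 h and DMSO libraries overlapped, and both 6 h libraries were lower, by a log2 change of -0.72 ± 0.0695 SE against DMSO (adjusted p = 8.71e-12) and -0.64 against 2 h. Without DMSO replicate 1 small falls at 2 h were also called for SRSF1 (adjusted p = 0.035) and SRSF2 (adjusted p = 0.00804).

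SRSF3, the smallest SR protein, was lower at 6 h with less change. It stood at 568 and 602 CPM in the DMSO libraries, 550.1 and 575 CPM at 2 h and 466 and 469 CPM at 6 h, with overlap between DMSO and 2 h and a log2 change of -0.32 ± 0.0556 SE at 6 h (adjusted p = 6.37e-06). SRSF9 went from 101 and 86.7 CPM in DMSO and 99.3 and 97.2 CPM at 2 h to 70.0 and 77.2 CPM at 6 h, -0.35 ± 0.0865 SE against DMSO and -0.42 ± 0.0862 SE against 2 h. The fall against DMSO was not called without 6 h replicate 1 (adjusted p = 0.065).

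SRSF7 and SRSF11 were lower at both times. SRSF7, which binds GA-rich exonic sites and helps export mRNA, stood at 214 and 223 CPM in the DMSO libraries, 175 and 177 CPM at 2 h and 176 and 169 CPM at 6 h. All 4 treated libraries lay below DMSO, by -0.31 ± 0.0668 SE at 2 h (adjusted p = 0.000497) and -0.34 ± 0.067 SE at 6 h (adjusted p = 4.72e-05), and 6 h did not differ from 2 h beyond the spread (-0.03 ± 0.0672 SE). SRSF11 stood at 262 and 283 CPM in the DMSO libraries, 239 and 241 CPM at 2 h and 215 and 216 CPM at 6 h, with all treated libraries below DMSO. Its change was -0.18 ± 0.0635 SE at 2 h and -0.34 ± 0.0638 SE at 6 h. The 2 h fall was close to the threshold (adjusted p = 0.0395) and was not called in 8 of 15 alternatives, for example without 2 h replicate 1 (adjusted p = 0.238), 2 h replicate 2 (0.224), DMSO replicate 2 (0.149), 6 h replicate 1 (0.0916) or 6 h replicate 2 (0.0912). The step from 2 h to 6 h was called only without DMSO replicate 1 (0.00481) or 2 (0.00345) or in a fit of the groups compared (0.00373).

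SRSF5 and SRSF6 fell at 2 h and were higher again at 6 h. SRSF5 stood at 126 and 123 CPM in the DMSO libraries, 77.4 and 70.4 CPM at 2 h and 108 and 123 CPM at 6 h. The 2 h libraries were the lowest by a wide margin, 1.69-fold below DMSO (log2 change -0.76 ± 0.0817 SE, adjusted p = 8.22e-10), the largest change of any of the 45 genes at 2 h. At 6 h SRSF5 was 1.57-fold above 2 h (adjusted p = 2.83e-08) and differed from DMSO by -0.11 ± 0.0801 SE, which was not called. SRSF6 stood at 194 and 214 CPM in the DMSO libraries, 175 and 169 CPM at 2 h and 214 and 201 CPM at 6 h, with both 2 h libraries below the other 4. Its fall at 2 h was smaller (-0.25 ± 0.0685 SE) and it was higher at 6 h than at 2 h (0.27 ± 0.0685 SE). Without 2 h replicate 2 neither change of SRSF6 was called (adjusted p = 0.15 against DMSO and 0.071 for 6 h against 2 h), nor was the second without 6 h replicate 1 (0.108).

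SRSF4 and SRSF10 rose, and SRSF8 was not called in any comparison. SRSF4, one of the longer SR proteins, went from 143 and 141 CPM in DMSO to 159.9 and 149 CPM at 2 h and 176 and 171 CPM at 6 h. All 4 treated libraries lay above DMSO, and the change of 0.28 ± 0.0705 SE at 6 h was called (adjusted p = 0.00109) while that of 0.11 at 2 h was not. The difference of SRSF4 between the times, 0.17 ± 0.0702 SE, was called in 6 of 15 alternatives, among them library size alone (adjusted p = 0.0091) and without DMSO replicate 1 (0.0105) or 2 (0.0147). SRSF10, which represses splicing when it loses its phosphates, went from 368 and 399.9 CPM in DMSO and 371 and 370.2 CPM at 2 h to 437 and 426 CPM at 6 h. Its rise of 0.17 ± 0.0588 SE over DMSO was small (adjusted p = 0.0211) and was lost without DMSO replicate 1 (adjusted p = 0.0758), 6 h replicate 1 (0.194) or 6 h replicate 2 (0.0953). Its difference of 0.22 ± 0.0588 SE from 2 h was lost without 2 h replicate 1 (0.0612), 2 h replicate 2 (0.0647) or 6 h replicate 1 (0.0979). SRSF8 (108 CPM in DMSO) changed by 0.14 ± 0.0775 SE at 2 h and -0.03 ± 0.078 SE at 6 h. It was called higher at 2 h without DMSO replicate 1 (adjusted p = 0.0433), and lower at 6 h than at 2 h without DMSO replicate 1 (0.0215) or 2 (0.0161).

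Counting ignored strand, and several SR genes overlap a neighbour. SRSF2 (chromosome 17, 76734115 to 76737333) shares 35.8% of its exonic length with MFSD11 and MIR636, SRSF1 (chromosome 17, 58000919 to 58007346) 35.1% with a pair of unnamed genes, SRSF9 46.7% with GATC and SRSF6 13.4% with an unnamed gene. Fragments in a shared stretch could not be assigned to one gene, so the levels of these genes are uncertain. SRSF5 (chromosome 14, 69726900 to 69772005), SRSF3, SRSF7, SRSF8, SRSF10 and SRSF11 share no exonic base.

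**Figure D4:**
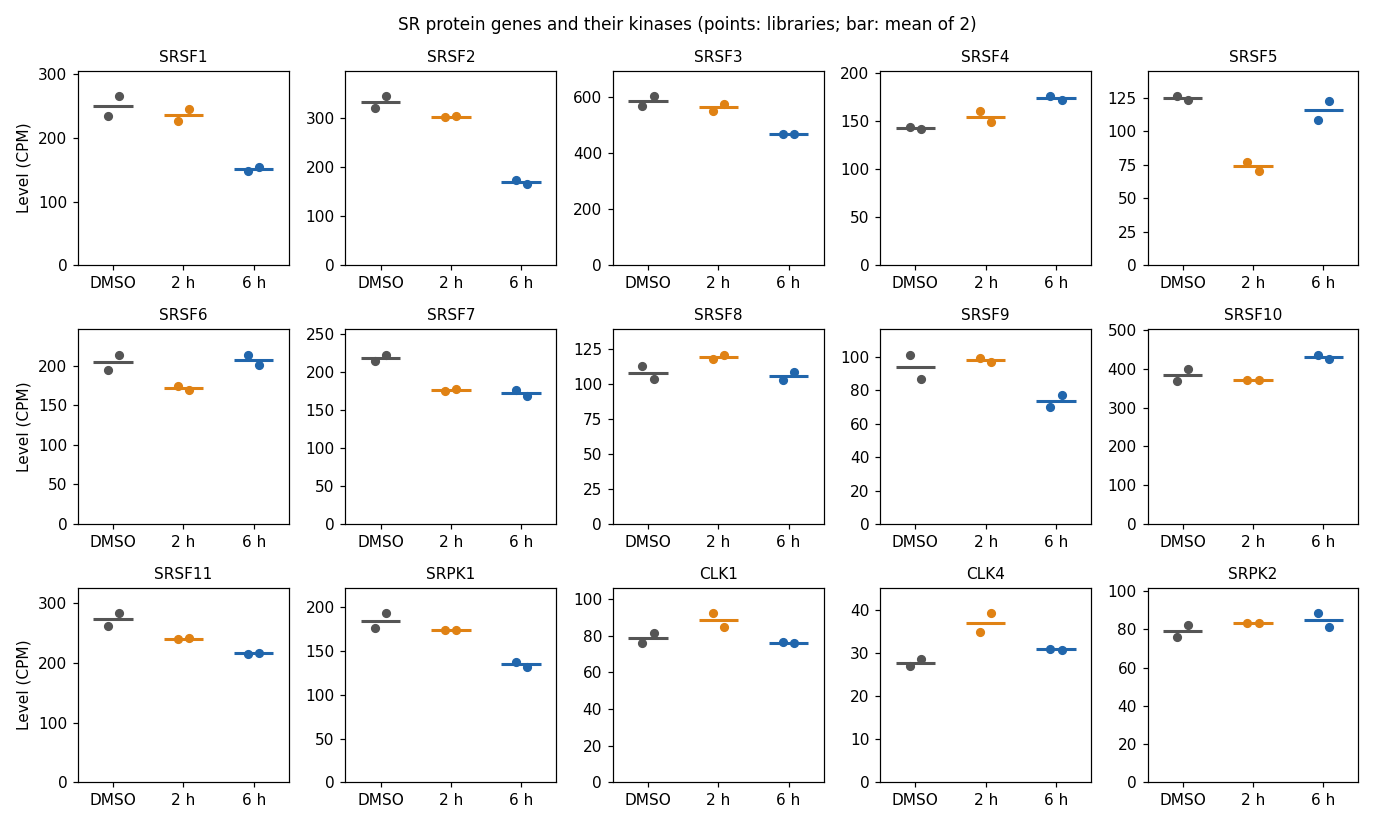
CPM of the 11 SR protein genes, SRPK1, SRPK2, CLK1 and CLK4 in each library (points) with the mean of the 2 libraries (bar), on axes that start at 0. SRSF1 and SRSF2 drop at 6 h, SRSF5 drops at 2 h to 77.4 and 70.4 CPM and returns toward its DMSO level, and CLK4 is highest at 2 h.

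The SR-like activators TRA2A and TRA2B, which bind GAA-rich exons, were not called against DMSO. TRA2A stood at 122 and 134 CPM in the DMSO libraries, 133 and 123 CPM at 2 h and 116 and 118 CPM at 6 h, the 6 h libraries lowest and the other groups overlapping, with no call (-0.00 ± 0.0755 SE at 2 h and -0.14 ± 0.0758 SE at 6 h). It was called lower at 6 h without DMSO replicate 1 (adjusted p = 0.0198). TRA2B stood at 314 and 346 CPM in the DMSO libraries, 305 and 303 CPM at 2 h and 343 and 345 CPM at 6 h. Its 2 h libraries lay below both other groups, and the 6 h libraries overlapped DMSO. Only the difference between 6 h and 2 h was called, at 0.18 ± 0.0611 SE (adjusted p = 0.0255), and leaving out any of the 4 treated libraries took it away (adjusted p from 0.162 to 0.187). TRA2B was also called lower at 2 h without DMSO replicate 1 (0.00445) and higher at 6 h without DMSO replicate 2 (0.0332).

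Of the 6 kinases 1 rose at 2 h and 1 fell at 6 h against DMSO, 16.7% each. Of all genes tested 8.68% were called higher at 2 h and 18.6% lower at 6 h. CLK4, a nuclear kinase of SR proteins closely related to CLK1, stood at 26.9 and 28.7 CPM in the DMSO libraries, 34.9 and 39.3 CPM at 2 h and 31.0 and 30.8 CPM at 6 h. Both 2 h libraries were above the rest, 1.34-fold over DMSO (log2 change 0.42 ± 0.117 SE, adjusted p = 0.00858), and the 6 h change of 0.15 ± 0.118 SE was not called. CLK4 had the lowest counts of the 45 genes, and without 2 h replicate 2 its rise was not called (adjusted p = 0.194). CLK1, the best studied of the CLK kinases, stood at 76.0 and 81.6 CPM in the DMSO libraries, 92.3 and 84.9 CPM at 2 h and 76.3 and 75.8 CPM at 6 h. Its 2 h libraries were the highest too, by 0.17 ± 0.0848 SE, but this was not called (adjusted p = 0.189). The difference of CLK1 between 6 h and 2 h was -0.22 ± 0.085 SE, just short of the threshold (adjusted p = 0.0535), and was called in 5 of 15 alternatives, among them without DMSO replicate 1 (adjusted p = 0.0118) or DMSO replicate 2 (0.0101). For CLK4 the same difference was -0.27 ± 0.116 SE (adjusted p = 0.0877), and it was called in 3 of 15 alternatives, among them without DMSO replicate 1 (0.0481) or 2 (0.0439). CLK2 and CLK3 were not called, with 0.07 ± 0.0978 SE and 0.16 ± 0.0977 SE for CLK2 at 2 h and 6 h, and 0.10 ± 0.108 SE and 0.01 ± 0.109 SE for CLK3.

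SRPK1, the main cytoplasmic kinase of SR proteins, fell at 6 h. It stood at 176 and 193 CPM in the DMSO libraries, 175 and 174 CPM at 2 h and 137 and 132 CPM at 6 h, with both 6 h libraries below the other 4. The fall was 1.37-fold against DMSO (log2 change -0.45 ± 0.0706 SE, adjusted p = 9.72e-07) and 1.29-fold against 2 h. Its relative SRPK2 stood at 79.2 CPM in DMSO and was not called, with 0.07 ± 0.0847 SE at 2 h and 0.10 ± 0.0848 SE at 6 h. SRPK1 shares 28.1% of its exonic length with LHFPL5.

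The sequence upstream of CLK4, the one kinase that rose, is shown because it holds a match to the E-box CACGTG, the letters bound by MYC and its partners. It is the exon-free part of the 250 bases before the RefSeq start (GRCh38.p14, chr5:178627113-178627300, written 5′ to 3′ on the gene's strand), with the match in capitals.
CLK4: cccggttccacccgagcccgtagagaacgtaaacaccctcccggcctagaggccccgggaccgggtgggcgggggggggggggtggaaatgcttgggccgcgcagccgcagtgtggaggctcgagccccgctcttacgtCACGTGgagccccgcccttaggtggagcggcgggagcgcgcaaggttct
In the upstream windows of the 40 genes that have one, CACGTG was found in 8 (CLK2, CLK4, HNRNPA3, HNRNPD, HNRNPDL, HNRNPH2, HNRNPH3 and HNRNPM), or 20.0%, beside 8.91% of the 10836 tested genes with a window. Of the 18 whose transcripts fell at 6 h 3 held it, and of the other 22 genes 5. A match describes letters and not binding.

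Of the 20 hnRNPs 11 fell at 6 h against DMSO, 2 rose and 7 were not called. At 2 h 3 fell and 2 rose. The share called in either direction was 65.0% at 6 h and 25.0% at 2 h. Genes averaging at least 100 CPM had 61.5% and 26.8%, and all genes tested 36.6% and 17.0%. By direction, 55.0% of the hnRNPs were lower and 10.0% higher at 6 h. The same shares were 35.6% and 25.8% of genes averaging at least 100 CPM, and 18.6% and 18.0% of all genes tested. The summed share of the 20 hnRNPs among all counted fragments was 0.969% and 0.897% in DMSO, 0.921% and 0.892% at 2 h, and 0.795% and 0.810% at 6 h. The DMSO libraries themselves differed in this share, with replicate 1 the higher.

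The F/H family, which binds runs of G, held the hnRNP that fell most. HNRNPH1 stood at 643 and 616 CPM in the DMSO libraries, 507 and 514 CPM at 2 h and 366 and 382 CPM at 6 h. The 3 groups were fully apart and in the order of time, with -0.30 ± 0.0557 SE at 2 h (adjusted p = 6.3e-05), -0.75 ± 0.0561 SE at 6 h (adjusted p = 4.38e-15) and -0.45 ± 0.056 SE between the times, all called in edgeR and in each of 15 alternatives. HNRNPF, its close relative, stood at 333 and 303 CPM in the DMSO libraries, 281 and 272 CPM at 2 h and 249 and 229.6 CPM at 6 h, also fully apart and in the order of time. Its log2 change at 6 h was -0.41 ± 0.0641 SE (adjusted p = 1.16e-06). Its 2 h fall of -0.20 (adjusted p = 0.0228) was lost without DMSO replicate 1 (adjusted p = 0.091), 2 h replicate 1 (0.0996), 2 h replicate 2 (0.248), 6 h replicate 1 (0.0521) or 6 h replicate 2 (0.0509). Its step from 2 h to 6 h of -0.21 was lost with library size alone as the scaling (0.0999) and without 2 h replicate 1 (0.15), 2 h replicate 2 (0.0566) or 6 h replicate 2 (0.29). HNRNPH2 and HNRNPH3 were not called, at 0.09 ± 0.103 SE and -0.13 ± 0.0781 SE at 6 h. HNRNPH2 shares 15.8% of its exonic length with its read-through gene RPL36A-HNRNPH2, so its level is uncertain. HNRNPH3 was called lower at 6 h without DMSO replicate 2 (adjusted p = 0.00917).

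In the A/B and D families 4 of 7 (57.1%) fell and 1 (14.3%) rose at 6 h against DMSO. The shares were 35.6% and 25.8% among genes averaging at least 100 CPM, and 18.6% and 18.0% over all genes tested. HNRNPAB, the most abundant of the 45 genes per length, stood at 599.5 and 505 CPM in the DMSO libraries, 500.4 and 488 CPM at 2 h and 393 and 405 CPM at 6 h, the 6 h libraries lowest and DMSO replicate 1 well above replicate 2. Its log2 change at 6 h was -0.47 ± 0.0617 SE (adjusted p = 2.83e-08), and the 2 h change of -0.16 ± 0.0614 SE was not called (adjusted p = 0.0677). It was called in 4 of 15 alternatives: without DMSO replicate 2 (1.53e-06), with library size alone (0.0266), with at least 10 counts in every library (0.0482) and in limma voom (0.0423). HNRNPA3 went from 295 and 298 CPM in DMSO and 321 and 303 CPM at 2 h to 252 and 260.4 CPM at 6 h, a log2 change of -0.21 ± 0.0615 SE against DMSO and -0.28 ± 0.0614 SE against 2 h. The first was not called without 6 h replicate 1 (adjusted p = 0.124).

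HNRNPA1, which represses exons bound by SRSF1, stood at 1099.8 and 1011 CPM in the DMSO libraries, 1174 and 1071 CPM at 2 h and 925 and 973 CPM at 6 h. The 6 h libraries were lowest and the 2 h and DMSO libraries overlapped. The fall at 6 h was small, -0.15 ± 0.0532 SE (adjusted p = 0.02), and was lost with library size alone (adjusted p = 0.077), in DESeq2 (0.0511), in a fit of the groups compared (0.0568) and without DMSO replicate 1 (0.0564) or 6 h replicate 1 (0.274). The difference between 6 h and 2 h was -0.24 ± 0.0532 SE (adjusted p = 0.000459), and was not called without 2 h replicate 1 (0.0784). Without DMSO replicate 1 HNRNPA1 was called higher at 2 h (0.00253). GENCODE 29 names 75 pseudogene copies of HNRNPA1, and reads that match several places were left out of the counts, so its level is uncertain. The same limit holds for others of the 45 genes. With HNRNPA1 included, 22 have such copies, 133 in all, among them HNRNPA3 (16), HNRNPC (9), HNRNPK (5) and HNRNPDL (4). HNRNPA2B1 stood at 1537 and 1426 CPM in the DMSO libraries, 1512 and 1435 CPM at 2 h and 1349.7 and 1392 CPM at 6 h. Its 6 h libraries were the lowest, but the change of -0.11 ± 0.0491 SE was not called (adjusted p = 0.0699) except in limma voom (0.0303) and without DMSO replicate 2 (3.88e-05). The difference of HNRNPA2B1 between the times, -0.10 ± 0.0491 SE, was called only without DMSO replicate 1 (0.00165) or 2 (0.000746) or in a fit of the groups compared (0.00223). HNRNPA0, a single-exon relative, was not called, with 0.17 ± 0.0684 SE at 2 h and 0.11 ± 0.0685 SE at 6 h. Without DMSO replicate 1 it was called higher at both times (adjusted p = 0.000145 and 0.00278), and in limma voom at 2 h (0.039).

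HNRNPD and its paralog HNRNPDL, which lie 48.1 kb apart on chromosome 4, were called in opposite directions at 6 h. HNRNPD (AUF1), which binds AU-rich mRNA and speeds its decay, stood at 257 and 227 CPM in the DMSO libraries, 240.4 and 226 CPM at 2 h and 188 and 185 CPM at 6 h and its log2 change at 6 h was -0.37 ± 0.0678 SE (adjusted p = 1.66e-05). Its 6 h libraries lay below the other 4. HNRNPDL stood at 265 and 241 CPM in the DMSO libraries, 322 and 297 CPM at 2 h and 289 and 291 CPM at 6 h, all 4 treated libraries above DMSO. Its rise was 0.29 ± 0.0636 SE at 2 h (adjusted p = 0.000691) and 0.20 ± 0.0637 SE at 6 h (adjusted p = 0.0126). The first was lost without 2 h replicate 1 (adjusted p = 0.0685), and the second without DMSO replicate 2 (0.0563), 6 h replicate 1 (0.0876) or 6 h replicate 2 (0.107).

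HNRNPL and HNRNPLL, which bind CA-rich RNA, were also called in opposite directions at 6 h. HNRNPLL is known for directing the exon choice of the surface phosphatase CD45 in lymphocytes and acts in plasma cells. It stood at 106 and 111 CPM in the DMSO libraries, 136 and 139.8 CPM at 2 h and 142 and 142 CPM at 6 h. All 4 treated libraries lay above DMSO, 1.28-fold at 2 h (log2 change 0.35 ± 0.0733 SE, adjusted p = 0.000376) and 1.31-fold at 6 h (0.39 ± 0.0734 SE, adjusted p = 2.33e-05), and both rises were called in each of 15 alternatives. HNRNPL went from 303 and 306 CPM in DMSO and 331 and 322 CPM at 2 h to 263 and 262 CPM at 6 h, a change of -0.22 ± 0.0606 SE against DMSO and -0.32 ± 0.0605 SE against 2 h. The fall against DMSO was lost without 6 h replicate 1 (adjusted p = 0.0628) or 6 h replicate 2 (0.0673). HNRNPLL (chromosome 2, 38561969 to 38603586) lies 140.0 kb from SRSF7, which fell at both times.

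Of the 9 other hnRNPs, HNRNPL and HNRNPLL among them, 5 (55.6%) fell and 1 (11.1%) rose at 6 h against DMSO. Genes averaging at least 100 CPM stood at 35.6% and 25.8%, and all genes tested at 18.6% and 18.0%. Of the 9, HNRNPR and HNRNPU changed most. HNRNPR, a close relative of SYNCRIP, stood at 455 and 425 CPM in the DMSO libraries, 424 and 401 CPM at 2 h and 286 and 281 CPM at 6 h. The 6 h libraries were far below the rest, by -0.63 ± 0.0598 SE against DMSO (adjusted p = 5.38e-12) and -0.54 ± 0.0597 SE against 2 h, while the 2 h change of -0.09 was called only without DMSO replicate 2 (adjusted p = 0.0431) among the 15 alternatives. HNRNPU, a scaffold attachment protein of chromatin, stood at 1041 and 980.0 CPM in the DMSO libraries, 899 and 908 CPM at 2 h and 694 and 677 CPM at 6 h, the groups apart and in the order of time. Its log2 change at 6 h was -0.56 ± 0.0518 SE (adjusted p = 2.8e-12). Its 2 h fall of -0.16 was called at an adjusted p of 0.0231 but not without either 2 h library (0.201 and 0.167) or either 6 h library (0.0625 and 0.0623). HNRNPU shares 15.6% of its exonic length with COX20.

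HNRNPK, which binds C-rich DNA and RNA, went from 802 and 782 CPM in DMSO and 804 and 796 CPM at 2 h to 638 and 649.6 CPM at 6 h, a change of -0.30 ± 0.0521 SE (adjusted p = 8.04e-06). HNRNPM, a repressor and activator of exons near GU-rich sites, went from 460.3 and 444 CPM in DMSO and 476 and 483 CPM at 2 h to 365 and 362 CPM at 6 h, a change of -0.31 ± 0.057 SE against DMSO and -0.40 ± 0.0569 SE against 2 h. For both genes the 2 h libraries were level with or just above DMSO. HNRNPC, which binds U-rich runs in introns, HNRNPUL1 and HNRNPUL2 were not called at either time, with -0.05 ± 0.0545 SE, 0.02 ± 0.0629 SE and 0.12 ± 0.0892 SE at 6 h. HNRNPUL1 (adjusted p = 0.00251) and HNRNPC (0.0459) were called higher at 2 h without DMSO replicate 1, and HNRNPC lower at 6 h than at 2 h without DMSO replicate 1 (0.00199) or 2 (0.00108). HNRNPUL2 shares 44.3% of its exonic length with its read-through gene HNRNPUL2-BSCL2.

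The sequences upstream of 5 hnRNP genes are shown for contrast: HNRNPH1, HNRNPR, HNRNPK and HNRNPL, which fell at 6 h, and HNRNPLL, which rose. They are the exon-free parts of the 250 bases before the RefSeq starts, on GRCh38.p14 at chr5:179634785-179635034, chr1:23344337-23344534, chr9:83980617-83980710, chr19:38852348-38852597 and chr2:38603037-38603167, all on the minus strand and written 5′ to 3′ along the gene. Capitals mark CCAAT or its reverse complement ATTGG in HNRNPR, HNRNPL and HNRNPLL, and TCTCGCGA, letters associated with ZBTB33, on both strands and overlapping itself in HNRNPK.
HNRNPH1: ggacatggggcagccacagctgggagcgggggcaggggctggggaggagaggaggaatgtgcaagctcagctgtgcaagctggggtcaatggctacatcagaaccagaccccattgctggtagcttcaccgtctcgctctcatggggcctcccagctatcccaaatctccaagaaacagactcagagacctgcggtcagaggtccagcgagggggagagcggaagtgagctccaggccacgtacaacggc
HNRNPR: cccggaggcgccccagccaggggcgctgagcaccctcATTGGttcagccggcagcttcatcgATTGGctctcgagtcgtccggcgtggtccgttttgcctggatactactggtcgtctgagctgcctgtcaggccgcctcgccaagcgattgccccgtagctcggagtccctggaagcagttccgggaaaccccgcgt
HNRNPK: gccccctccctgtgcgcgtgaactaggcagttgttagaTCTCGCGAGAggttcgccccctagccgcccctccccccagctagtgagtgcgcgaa
HNRNPL: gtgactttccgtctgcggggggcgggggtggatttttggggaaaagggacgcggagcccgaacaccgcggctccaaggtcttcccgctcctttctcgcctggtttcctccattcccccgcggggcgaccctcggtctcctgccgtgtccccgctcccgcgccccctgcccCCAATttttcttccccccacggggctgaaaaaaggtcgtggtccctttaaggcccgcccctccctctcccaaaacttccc
HNRNPLL: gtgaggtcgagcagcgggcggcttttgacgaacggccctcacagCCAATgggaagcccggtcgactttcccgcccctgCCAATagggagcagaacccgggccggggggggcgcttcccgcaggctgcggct
The pair that moved apart, HNRNPL and HNRNPLL, both hold CCAAT, once and at a pair of places. They differ in the ETS core CCGGAAG, found in the 250-base window of HNRNPLL, outside the part shown, and not in that of HNRNPL. HNRNPH1 holds none of the 7 motifs searched.

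Motifs were searched on both strands of the whole 250-base windows, exons included, and no motif contains another. CCAAT was in 45.0% of the 40 windows beside 34.9% of the 10836 windows of tested genes, and TATAAA in 12.5% (SRSF3, SRSF11, HNRNPAB, HNRNPC and HNRNPD) beside 5.56%. TCTCGCGA was in 2 windows, those of SRSF10 and HNRNPK, or 5.0% beside 2.16%. The ETS core CCGGAAG was in 12.5% beside 16.0%, GCATGCGC, the core of NRF1 sites, in 2 windows (SRSF10 and PSPC1) or 5.0% beside 4.91%, and TGACGTCA, the cAMP response element, in 0 of 40 beside 2.89%. Between the 18 genes that fell at 6 h and the other 22, CCAAT stood at 50.0% and 40.9%, TATAAA at 22.2% and 4.55%, and the ETS core at 11.1% and 13.6%. Median GC content of the windows was 65.4%, beside 64.8% for tested genes, with SRSF8 the lowest at 33.6% and SRSF4 the highest at 73.6%.

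PTBP1, the repressor that binds pyrimidine tracts, fell at 6 h and its paralog PTBP3 was not called. PTBP1 stood at 840.3 and 755 CPM in the DMSO libraries, 777 and 775 CPM at 2 h and 672 and 654 CPM at 6 h. The 6 h libraries were lowest and 2 h lay within the DMSO range, with -0.27 ± 0.0545 SE against DMSO (adjusted p = 9.77e-05) and -0.23 ± 0.0545 SE against 2 h, the second lost without 6 h replicate 2 (adjusted p = 0.0546). PTBP1 was also called lower at 2 h without DMSO replicate 2 (adjusted p = 0.0498). PTBP3 stood at 194 and 211 CPM in DMSO, 222 and 230.4 CPM at 2 h and 223 and 217 CPM at 6 h, all 4 treated libraries above DMSO, with 0.16 ± 0.066 SE and 0.12 ± 0.0661 SE. Without DMSO replicate 2 it was called higher at both times (adjusted p = 0.00247 and 0.0126).

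**Figure D5:**
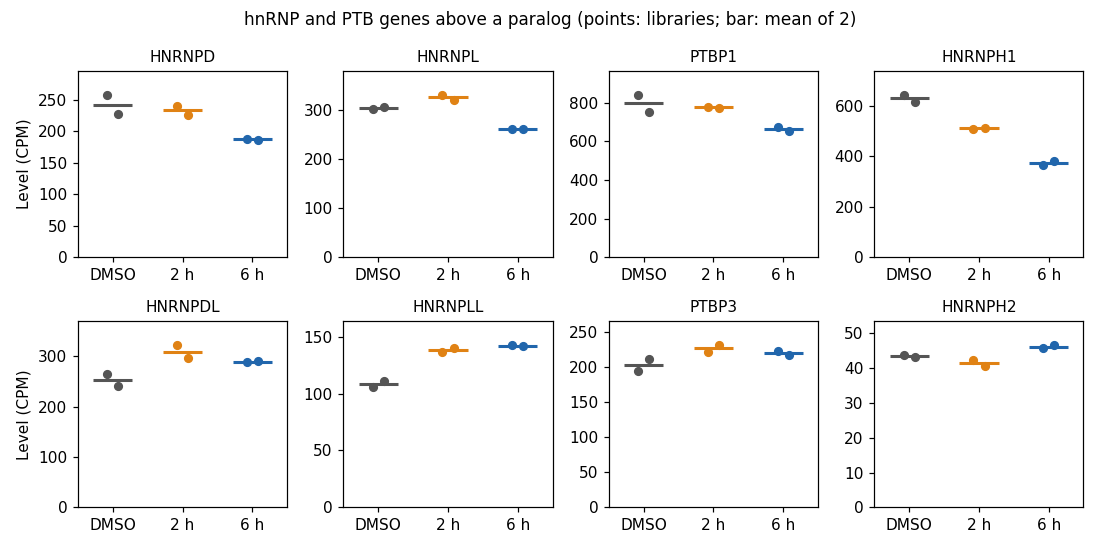
CPM in each library (points) with the mean of the 2 libraries (bar) for HNRNPD, HNRNPL, PTBP1 and HNRNPH1 (top) and a paralog of each below, on axes that start at 0. At 6 h the upper 4 genes are below DMSO, HNRNPDL and HNRNPLL are above it, and PTBP3 and HNRNPH2 were not called.

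SFPQ, NONO and PSPC1 form dimers that act in splicing and transcription and build paraspeckles around the noncoding RNA NEAT1. SFPQ stood at 1218 and 1139 CPM in the DMSO libraries, 956 and 970.4 CPM at 2 h and 775 and 775 CPM at 6 h. The 3 groups were apart and in the order of time, at -0.29 ± 0.0507 SE at 2 h (adjusted p = 2.64e-05), -0.61 ± 0.0509 SE at 6 h (adjusted p = 1.71e-13) and -0.31 ± 0.0509 SE between the times, all called in each of 15 alternatives. NONO stood at 419 and 421 CPM in the DMSO libraries, 415 and 404 CPM at 2 h and 359.6 and 367 CPM at 6 h. Its 6 h libraries were lowest and its 2 h libraries just below DMSO, with -0.21 ± 0.0576 SE at 6 h (adjusted p = 0.00303, and 0.0803 without 6 h replicate 1). The step of NONO from 2 h to 6 h, -0.17 ± 0.0575 SE (adjusted p = 0.0218), was lost with library size alone (0.173) and without any of the 4 treated libraries (0.107 to 0.223). PSPC1 stood at 123 and 114 CPM in the DMSO libraries, 101 and 112 CPM at 2 h and 103 and 106 CPM at 6 h. All treated libraries lay below DMSO, but neither -0.15 ± 0.0785 SE at 2 h nor -0.18 ± 0.0787 SE at 6 h was called, the second except without DMSO replicate 2 (adjusted p = 0.0106).

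RBM39, an SR-related cofactor of splicing that is degraded by aryl sulfonamides, was not called against DMSO, with 0.03 ± 0.0609 SE at 2 h and -0.08 ± 0.0611 SE at 6 h. It stood at 289.5 and 307 CPM in DMSO and 282 and 281 CPM at 6 h, and was called lower at 6 h than at 2 h only without DMSO replicate 1 (adjusted p = 0.0388) or 2 (0.0276) or in a fit of the groups compared (0.0226). GENCODE 29 annotates 45 transcripts of RBM39, 15 of them targets of nonsense-mediated decay and 16 with a retained intron.

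Such unproductive transcripts were common among the 45 genes. Of them 38, or 84.4%, have at least 1 annotated transcript of either kind, beside 67.8% of 12254 tested protein-coding genes and 76.7% of those averaging at least 100 CPM. The median share of a gene's transcripts of these kinds was 40.7%, beside 22.2% and 28.6%. It was 75.0% for SRSF3 and SRSF4, 66.7% for SRSF7, SRSF9, CLK1 and CLK4, and 0 for HNRNPA0, HNRNPF, HNRNPH2, HNRNPH3, PTBP3, CLK2 and NONO. A gene's count sums over all its transcripts, so productive and unproductive forms cannot be told apart here.

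Genes of the wider splicing pathway were counted in 5 lists, all with more members lower than higher at 6 h. The median log2 change to read beside theirs was -0.00 over all genes tested at each time. Among genes averaging at least 100 CPM it was 0.04 at 2 h and -0.06 at 6 h. Of 69 core spliceosome genes 34 fell and 3 rose against DMSO (median log2 change -0.20), and 8 fell and 1 rose at 2 h (-0.05). For these lists the called shares to read beside are, at 6 h, 18.6% lower and 18.0% higher over all genes tested and 35.6% and 25.8% among genes averaging at least 100 CPM. At 2 h they are 8.32% lower and 8.68% higher, and 10.9% and 15.9%. SNRNP70, the U1 snRNP protein that contacts SR proteins, went from 174 CPM in DMSO to 133 at 2 h and 94.7 at 6 h, log2 changes of -0.39 ± 0.0842 SE and -0.88 ± 0.0857 SE. U2AF2, which binds the polypyrimidine tract, was lower at 6 h (192 CPM) than at 2 h (298 CPM), a log2 change of -0.64 ± 0.0668 SE.

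Of 31 other SR-related proteins 13 fell and 2 rose at 2 h (median -0.15), and 12 fell and 4 rose at 6 h (-0.17). Between the times 9 of the 31 were higher at 6 h and 2 lower. Over all genes tested 11.1% were called higher and 13.1% lower between the times. Among genes averaging at least 100 CPM the shares were 15.4% and 34.5%. ZRANB2, a zinc-finger splicing protein, stood at 190.4 CPM in DMSO, 113 at 2 h (-0.76 ± 0.0765 SE) and 110.3 at 6 h (-0.79 ± 0.0767 SE), and PNN fell from 194 to 121 CPM at 6 h (-0.67 ± 0.0715 SE). RSRP1 fell at 2 h (-0.62 ± 0.0955 SE) and was higher at 6 h than at 2 h (0.43 ± 0.0959 SE). Of 42 other splicing RNA-binding proteins 9 fell and 1 rose at 2 h (median -0.06), and 23 fell and 5 rose at 6 h (-0.22). RBM38 fell from 128 to 67.8 CPM at 6 h (-0.91 ± 0.0795 SE).

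Among 21 other kinases, phosphatases and transport factors of SR proteins 3 fell and 2 rose at 2 h, and 9 fell and 5 rose at 6 h (median -0.07). PPP1R10, a nuclear subunit of protein phosphatase PP1, rose at 2 h from 70.4 to 166 CPM (log2 change 1.24 ± 0.0806 SE) and was lower again at 6 h (98.9 CPM). PRPF4B, a spliceosome kinase, fell from 183 to 140.0 CPM at 2 h (-0.39 ± 0.0718 SE) and to 119 CPM at 6 h (-0.62 ± 0.0724 SE). Of 22 genes of nonsense-mediated decay, the pathway that removes transcripts with poison exons, 7 fell and 15 were not called at 2 h (median -0.13), and 9 fell and 3 rose at 6 h (median -0.19). SMG5, which recruits decay enzymes, fell from 377 to 153 CPM at 2 h (-1.30 ± 0.0652 SE) and stood at 173 CPM at 6 h (-1.13 ± 0.0649 SE).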

How the data were processed

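RNA-seq libraries from 6 JJN3 samples were analysed from the gene count table deposited by the authors. Per the submitters' processing notes, reads were trimmed with Trimmomatic and aligned with STAR to hg38; their versions are not given in the sources used here. Per the file headers, fragments were counted by the authors with featureCounts 2.0.0 on GENCODE 34, without strand, at a mapping quality of at least 20. Fragments matching several places or lying on 2 genes went uncounted, which lowers counts of overlapping genes and of genes with pseudogene copies. Totals of the counts were 18013790 to 24002291 per library. A count of 3 equals 0.125 to 0.167 CPM of these totals, without TMM scaling and for counting error only.

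Symbols were found for 60415 of 60728 gene IDs. Counts were fitted with edgeR 4.0.16 (R 4.3.3): all 6 libraries, TMM scaling (0.977 to 1.03), filterByExpr (15548 genes), the quasi-likelihood test, and Benjamini-Hochberg adjustment over all genes tested. The common biological coefficient of variation was 7.72%. Each gene's spread was drawn toward that of other genes, with a median of 42.8 prior degrees of freedom beside 3 residual ones. SE is the absolute log2 change divided by the root of F. The 15 alternatives were other scalings and filters, DESeq2 1.42.0, limma voom 3.58.1, a fit of the groups compared, a replicate block, an adjusted p under 0.01, and each library left out. The fit was tested on simulated counts for 2 h against DMSO, with changes put into genes averaging at least 4 CPM. It recovered 26.9% of log2 changes of 0.3, 73.1% of those of 0.5 and 90.9% of those of 1.0. Of 131 calls 4 were false. At most 67 genes were changed at each size, while 2642 genes were called at 2 h in the data. The 45 genes had a median of 243 CPM, so these rates do not give the recovery for them. Their largest absolute log2 change not called was 0.17 at 2 h, 0.18 at 6 h and 0.27 between the times. A change of that size that was not called can still be real.

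The 45 genes, all lists and the motifs were chosen with earlier results of these data known. Every gene called in any comparison is named. By rule, values per library are given for all 11 genes called at 2 h, the 12 called genes with the largest change at 6 h against DMSO, the 6 with the largest between the times, and CLK1, CLK4, SRSF1, SRSF2, SRSF3, SRSF7, TRA2A, TRA2B, HNRNPA1, HNRNPA2B1, HNRNPDL, PTBP1, SFPQ, NONO and PSPC1. Those of SRSF4, SRSF10, HNRNPA3, HNRNPK, HNRNPL, HNRNPM, PTBP3 and RBM39 were added after their values were seen. Per pathway list and comparison, up to 3 called genes averaging at least 4 CPM could be named. Transcript types came from GENCODE 29. Upstream sequences came from RefSeq (GRCh38.p14), matched by symbol for 40 of the 45 genes and 10836 of the 15548 tested.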

Additional observations from a re-analysis of the deposited data

Results flagged for a closer look

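In the direct test of 6 h against 2 h (edgeR quasi-likelihood, Benjamini-Hochberg adjusted p under 0.05 over all genes tested), 23 of the 45 genes differed between the times, 4 higher and 19 lower at 6 h. This share of 51.1% was close to the 49.9% of genes averaging at least 100 CPM, and above the 24.3% of all genes tested. By direction, 42.2% of the 45 were lower and 8.89% higher, beside 34.5% and 15.4% of genes averaging at least 100 CPM. Both times were set against the same DMSO libraries, so this test, and not a difference in calls against DMSO, is what bears on time.

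The SR proteins went both ways. SRSF5 (log2 difference 0.65), SRSF6 (0.27), SRSF10 (0.22) and the SR-like TRA2B (0.18) were higher at 6 h. SRSF2 (-0.84), SRSF1 (-0.64), SRSF9 (-0.42) and SRSF3 (-0.27) were lower, as was the kinase SRPK1 (-0.37).

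Every hnRNP called between the times was lower at 6 h. The differences were -0.54 for HNRNPR, -0.45 for HNRNPH1, -0.40 for HNRNPU, -0.40 for HNRNPM, -0.32 for HNRNPD, -0.32 for HNRNPL, -0.31 for HNRNPK, -0.31 for HNRNPAB, -0.28 for HNRNPA3, -0.24 for HNRNPA1 and -0.21 for HNRNPF. SFPQ (-0.31), PTBP1 (-0.23) and NONO (-0.17) were lower too. The calls of SRSF6, SRSF10, TRA2B, HNRNPA1, HNRNPF, PTBP1 and NONO were lost in at least 1 of 15 alternatives.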

How the results depend on the processing

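No gene of the 45 changed direction while called under any of 15 alternatives. Of the genes called, 5 of 11 at 2 h, 18 of 25 at 6 h and 16 of 23 between the times were called in each alternative, and 12, 7 and 8 genes that were not called were called in at least 1. Leaving out 1 library gave 2 to 8 genes higher and 4 to 10 lower at 2 h, 2 to 5 higher and 16 to 24 lower at 6 h, and 1 to 5 higher and 16 to 26 lower at 6 h against 2 h. The count lower at 2 h, 8, became 5 in a fit of the groups compared and 5 at an adjusted p under 0.01, and the count higher at 6 h, 4, became 2 at that threshold. A stricter threshold calls fewer genes by construction, and for the other moves the cause was not tested. For 6 h against 2 h, leaving out a DMSO library can act only through the filter, the scaling and the shared estimate of the spread. For SRSF11 that log2 change was -0.154 with all libraries, -0.157 without DMSO replicate 1 and -0.163 without DMSO replicate 2. With a replicate block the counts were the same, 3 higher and 8 lower at 2 h, 4 and 21 at 6 h, and 4 and 19 between the times. Whether libraries of the same replicate number were made as a set is not stated. Correlations over genes of replicate 1 minus replicate 2 were -0.0054, -0.038 and -0.021 between groups. They take in all genes tested, those at low counts included, where counting error can hide a shared shift, so they do not settle it. The lowest count of these genes was 486, and having 2 libraries a group limits the detection of small changes.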
